A study of Mus musculus with 8 samples.

Results

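The mouse miRNAs numbered 6896 to 7094 form one consecutive block of names, and many of them lie at the ends of introns. Of the 1966 mature miRNA names in the count table, 403 belonged to this block when every name with a number from 6896 to 7094 was taken, whatever its arm or letter. They covered 199 numbers, with 202 names for the 5p arm and 201 for the 3p arm of the hairpin. Small RNA counts (miRNA-seq) came from femoral head cartilage cells (primary articular chondrocytes) of wild-type mice aged 3 weeks. The cultures received either vehicle or IL-1β, a proinflammatory cytokine, at 1 ng/ml for 24 h, with 4 libraries in each group. Both groups shared one culture protocol. Nothing in the labels says whether the libraries of a group came from separate animals or cultures, so each p-value measures the spread between these libraries only.

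Most miRNAs are cut from a long transcript by the nuclear enzyme Drosha and then by Dicer, which leaves a 5p and a 3p strand from the arms of a hairpin. A mirtron skips Drosha: the spliceosome cuts out a short intron, the intron lariat is opened, and the linear RNA folds into a hairpin that Dicer can use. In a tailed mirtron the hairpin sits at only one end of the intron, so that splicing forms one end of the hairpin and another nuclease has to trim the other. Introns usually begin with GU and end with a run of pyrimidines (C and U) followed by AG, and a mirtron arm carries those letters with it.

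The block was taken as a series annotated largely as mirtrons, and most of its hairpins matched that description. Such a match follows in part from how the names were annotated. Of the 403 names, 355 had a mature sequence in the RefSeq set for GRCm38, and 182 hairpins could be placed against the introns of the GENCODE M21 genes. Each overlapped an intron on its own strand, and 172 lay wholly inside it. Another 9 reached 1 to 7 bases past an end of the intron, and Mir7025 began 30 bases before the intron of Pdgfra, out of a length of 74 bases. The hairpin ended within 5 bases of the 3′ end of its intron in 170 of them. In 12 (6.59%) the other end also fell within 5 bases of the start of the intron, so that the whole intron was the hairpin, and in 158 (86.8%) only the 3′ ends met. A further 4 met the intron only at its start, and 8 met it at neither end by this limit. Of the 8, Mir6901, Mir6903, Mir6904, Mir6914, Mir6925 and Mir7029 ran no more than 7 bases past the intron end. Mir7025 and Mir7036b lay away from it. Mir6973b, among the 4, also ran 7 bases past the intron end. Among the 807 other hairpins of the table that could be placed, 5 filled an intron, 32 (3.97%) met only its 3′ end, 5 met only its start, 360 (44.6%) lay in an intron away from both ends, 87 lay in an exon and 318 lay outside introns and exons. Other hairpins numbered 3000 and above held 28 of the 32, which was 8.33% of 336 such hairpins.

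The host introns of the block ranged from 66 to 36269 bases with a median of 461, whereas the hairpins had a median of 66 bases. The 182 hairpins came from 179 host genes. Ankrd52, Cmip and Srebf1 each held a pair of them. A further annotation applied to 25 of the hairpins, which also lay within an exon of another transcript, Mir7068 and Mir7084 among them.

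The hairpins Mir6944, Mir7068 and Mir7052 show the arrangement, with the GU and AG at the ends of the intron in capitals. Mir6944 is the whole of an intron of 96 bases in Dbn1 (drebrin, an actin-binding protein) at chr13:55477681-55477776 on the minus strand of GRCm38. Mir7068 fills an intron of 74 bases in Cherp, an endoplasmic reticulum and splicing-linked protein, at chr8:72470016-72470089 on the minus strand. Mir7052 takes up only the last 65 bases of an intron of 239 bases in Josd2, a deubiquitinase, at chr7:44470347-44470411 on the plus strand, and thus has no GU of the intron at its start.
mir-6944: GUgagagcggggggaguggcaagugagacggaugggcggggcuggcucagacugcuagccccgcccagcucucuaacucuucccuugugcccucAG
mir-7068: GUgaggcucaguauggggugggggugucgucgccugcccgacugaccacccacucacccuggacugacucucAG
mir-7052: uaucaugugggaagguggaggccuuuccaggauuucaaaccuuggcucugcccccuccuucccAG

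**Figure D1:**
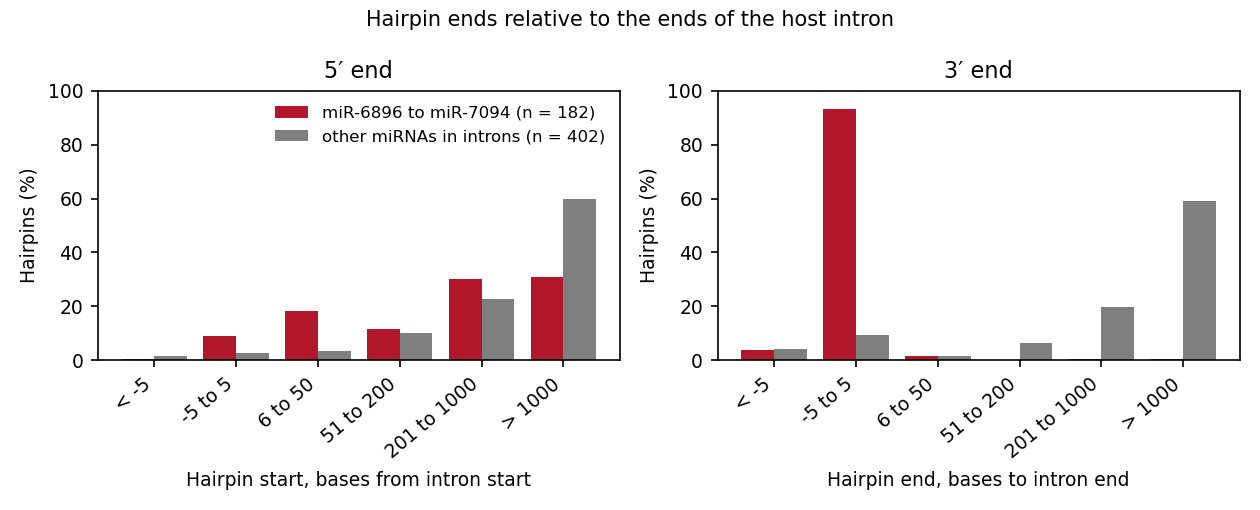
Percentage of hairpins by the distance, in bases, of the hairpin start from the start of the host intron (left) and of the hairpin end from the intron end (right), for the 182 hairpins of the block and 402 other hairpins in introns. The block piles up within 5 bases of the intron end, while its starts are spread over all distances.

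Mature arms of the 6 hairpins with the most counts, and 2 more that share a seed with one of them, show what this position leaves in the miRNA. The seed (bases 2 to 8, which pair with a target) is in capitals. Of the 8 sequences, 7 are 3p arms, rich in pyrimidines, that end in cag. The other, miR-7033-5p, comes from the purine-rich side of its hairpin. They lie at chr13:55477681-55477703, chr7:24970010-24970031, chr7:44470391-44470411, chr10:128382882-128382900, chr8:72470016-72470036, chr5:135383783-135383805, chr4:137538349-137538370 and chr4:149655504-149655525 in the order given.
miR-6944-3p: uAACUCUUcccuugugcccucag
miR-7046-3p: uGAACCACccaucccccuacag
miR-7052-3p: gCUCUGCCcccuccuucccag
miR-6914-3p: uCUGUCCAccucuucccag
miR-7068-3p: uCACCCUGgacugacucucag
miR-7033-5p: uCUCCAGGagucugaggggcagg
miR-7018-3p: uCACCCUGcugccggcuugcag
miR-7023-3p: uCACCCUGucugcgccccucag

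The 3p arm ended on the very last base of the intron in 133 of the 174 hairpins where this could be read (76.4%), against 20 of 287 other hairpins in introns (6.97%). For those of the others numbered 3000 and above it was 16 of 108 (14.8%). Of the 177 sequenced 3p arms of the block, 78.0% ended in AG and 67.8% in CAG. Among 530 other 3p arms, the shares were 10.9% and 5.47%. The GU of the intron start was not seen in the same way. Of 178 sequenced 5p arms, 34 (19.1%) held GU in their first 4 bases, with 20.5% of 517 other 5p arms, and 27 of the 182 hairpins (14.8%) began with GU, with 5.95% of the 807 others. Pyrimidines made up a median of 72.2% of the bases of these 3p arms, compared with 54.5% in other 3p arms. Conversely, the 5p arms had a median of 43.5% G, compared with 27.3% in other 5p arms. These are counts over annotated sequences, given without a test, and they do not depend on the libraries. Names annotated as mirtrons would carry such ends, so the contrast with other miRNAs is no independent support for that annotation.

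**Figure D2:**
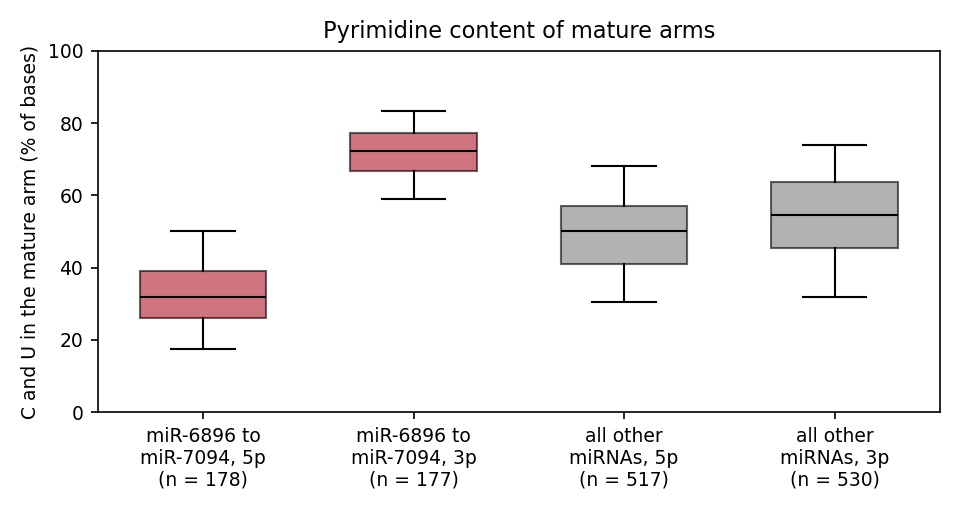
Share of C and U (percent of bases) in the mature arms with a sequence, for the block and for all other miRNAs in the table. Boxes span the quartiles with the median as a line, and whiskers span the 5th to 95th percentiles. The 3p arms of the block sit highest (median 72.2%) and its 5p arms lowest (median 31.8%), while the arms of other miRNAs lie between them.

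Of the 355 members with a sequence, 54 (15.2%) shared their seed with another member. There were 25 such seeds, of which 21 occurred in 2 members and 4 in 3. CACCCUG was the seed of miR-7018-3p, miR-7023-3p and miR-7068-3p. The other 3 seeds with 3 members were all of 5p arms: GGGCUGA (miR-6911, miR-7028 and miR-7079), GGGGAGG (miR-7030, miR-7075 and miR-7076) and GUGGGAG (miR-6922, miR-6993 and miR-7008).

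In chondrocytes, 211 of the 403 members had at least 1 count over the 8 libraries and 192 had none. Detection was thin: 67 members had a single count, 157 had 1 to 9 counts, 45 had 10 to 99, and 9 had 100 or more. Only 23 were counted in all 8 libraries. Together they held 4391 counts, or 0.0552% of all counts. The 2 leading members, miR-6944-3p and miR-7046-3p, held 37.0% of these, and the 10 leading members held 67.5%.

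The share of names with a count was 52.4%, and among the other 1563 miRNAs it was 50.7%, but fewer members reached a level that could be tested. In the block, 63 members (15.6%) exceeded 1 CPM (counts per 1000000 counts of the library) in at least 4 libraries and could be tested, compared with 501 (32.1%) of the others. Of 584 other miRNAs with late numbers (3000 and above), 39.0% had counts and 100 (17.1%) were tested, a share near that of the block.

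Library totals ran from 616475 to 1568367 counts, so that 1 count was worth 0.638 to 1.62 CPM and the 3 counts that an observed 0 allows were worth 1.91 to 4.87 CPM (counting error only). A member listed at 0 may thus have been present below these levels. Chondrocyte miRNAs (both arms of miR-140 and miR-455) summed to between 153547 and 168966 normalized CPM in vehicle libraries and between 132602 and 155815 in IL-1β libraries. Of 6 haematopoietic markers 4 were at 0, including miR-223-3p and miR-451a. The other 2, miR-142a-5p and miR-150-5p, summed to 43.5 to 62.5 normalized CPM with vehicle and 25.6 to 45.5 with IL-1β. These ranges barely overlapped, and that with IL-1β lay lower. The 3 muscle markers and the liver marker were at 0 throughout, and the endothelial markers reached at most 2.92. The 5 epithelial markers were at 0 in every vehicle library and summed to between 0.843 and 5.85 normalized CPM in the IL-1β libraries, from 1, 1, 4 and 1 counts, so that this list moved with treatment. The part of the haematopoietic and epithelial lists in the results was not tested. IL-1β library 4 had the lowest TMM scaling factor, 0.932, with the other 7 between 0.985 and 1.04, and 57.2% of its other counts were from 3p arms, with 61.2% to 63.1% in the other libraries.

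Detection was also set beside the position of the hairpin. Among 3p arms that end on the last base of the intron, 86 of 133 had counts (64.7%) and 35 were tested. Among 3p arms that end elsewhere, 15 of 41 had counts (36.6%) and 7 were tested. Of all 174 3p arms, 166 end within 5 bases of the intron end, so most that end elsewhere lie only a few bases from it. The 12 hairpins that fill their intron gave 1183 counts, 10 of them having any, but miR-6944-3p alone supplied 818. The 158 hairpins that meet only the intron end gave 2546 counts, from 110 hairpins. The 8 at neither end gave 236 counts, of which miR-6914 supplied 215. Its RefSeq hairpin runs 6 bases past the intron of Ankrd52 (a regulatory partner of protein phosphatase 6), although its 3p arm ends with the intron. No test was made across these classes.

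The 3p arm was the counted arm for most hairpins. The 3p names held 3830 counts and the 5p names 561. In every library between 85.4% and 89.6% of member counts were 3p, and the group means did not differ beyond their spread (vehicle 87.4% ± 0.468, IL-1β 87.1% ± 1.80, SD, n = 4). Of 33 hairpins with at least 20 counts and both arms listed, 27 were 3p-dominant, 2 were 5p-dominant and 4 were neither, where dominant means that the exact binomial 95% interval of the 3p share excludes 50%. In 17 of the 33, all counts were from the 3p arm. Other hairpins at the same minimum were balanced: 110 of 227 were 3p-dominant (48.5%) and 101 were 5p-dominant (44.5%). Other late-numbered hairpins leaned the same way as the block, with 24 of 31 3p-dominant (77.4%) and 4 5p-dominant.

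The arms of miR-6944 gave 818 counts on the 3p side and 0 on the 5p side, so that the 3p share was at least 99.55% by the lower bound of its interval. miR-7046, from an intron of Rabac1 (a Rab acceptor of the Golgi), gave 805 and 0. miR-7052 gave 300 and 0. In these 3 hairpins no 5p read was counted in any library. miR-6914 had 1 count on the 5p side beside 214 and miR-7068 had 1 beside 195.

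miR-7033 and miR-6937 went the other way. miR-7033, in an intron of the nuclear pore gene Pom121, had 181 counts on the 5p arm and 0 on the 3p arm, which limits the 3p share to 2.02%. miR-6937, in an intron of Adi1 (an enzyme of methionine salvage), had 96 counts on the 5p arm and 1 on the 3p arm. Both hairpins end on the last base of their intron, as do Mir6944, Mir7046 and Mir7052. The 4 without a dominant arm were miR-7040 with a 3p share of 55.0%, miR-7016 with 57.1%, miR-7069 with 68.2% and miR-6968 with 71.4%, each on 21 to 40 counts. These 4 hairpins are named here after their values were seen.

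**Figure D3:**
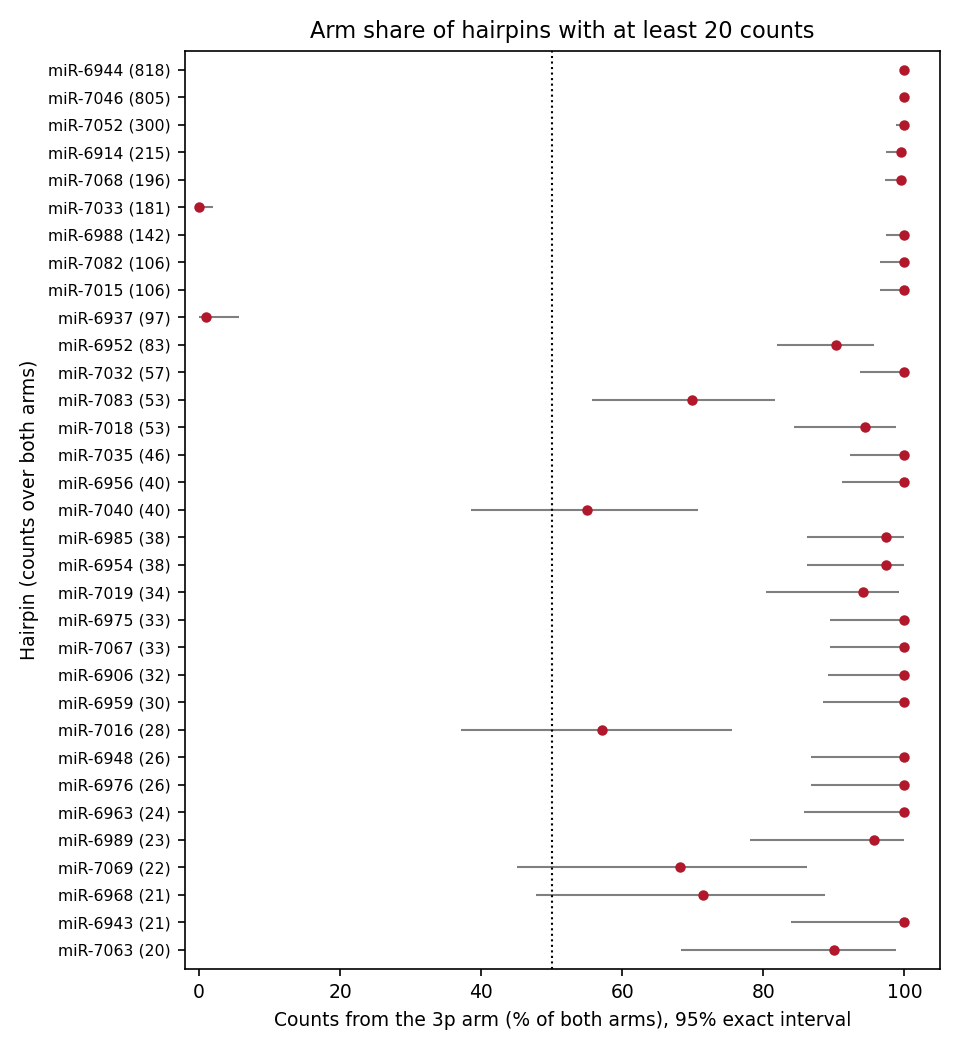
Share of counts from the 3p arm (percent of both arms, pooled over 8 libraries) for the 33 hairpins with at least 20 counts, ordered by counts, which stand in brackets. Lines are exact binomial 95% intervals, covering counting error only, and the dotted line marks 50%. The 27 3p-dominant hairpins lie to the right, miR-7033 and miR-6937 lie at the far left, and 4 intervals cross the line.

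The balance of the arms was next compared between treatments in the 142 hairpins of the table with both arms above the filter, of which 2 (1.41%) were called by edgeR at an adjusted p under 0.05. Only 5 hairpins of the block could enter, miR-6909, miR-7016, miR-7040, miR-7069 and miR-7083, and 0 were called. The smallest p among these 5 was that of miR-7083, from an intron of Dock6 (an activator of Rac and Cdc42). Its 3p arm made up 84.4% of its counts in vehicle libraries and 47.6% in IL-1β libraries, over 53 counts in all. The change in the log2 ratio of 3p to 5p counts was -2.44 (SE 1.01, adjusted p = 0.496 by the edgeR quasi-likelihood test), which did not pass.

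The summed level of the block did not separate the treatments. The vehicle libraries had 523, 498, 596 and 518 CPM in members, and the IL-1β libraries had 579, 648, 573 and 457. The ranges overlapped, and the means of 534 ± 43.1 and 564 ± 79.2 CPM (SD, n = 4) differed by less than the spread within either group. In normalized CPM the means were 528 ± 37.5 and 567 ± 56.4, and the difference of 38.6 exceeded the SD of the vehicle group but not that of the IL-1β group. In unscaled CPM and without IL-1β library 4, the lowest, the IL-1β mean was 599.8 ± 41.6 CPM (SD, n = 3), and the difference of 66.3 CPM exceeded the SD of either group, although the ranges still overlapped. Without the member miR-6944-3p, the difference, IL-1β minus vehicle, was -9.35 CPM, so that its sign turned. Members with counts numbered 83, 103, 106 and 60 in vehicle libraries and 71, 104, 67 and 80 in IL-1β libraries. At one common depth of 616475 counts the expected numbers were 68.9, 65.1, 71.6 and 59.2 in vehicle libraries and 71.0, 79.1, 63.2 and 67.9 in IL-1β libraries, which overlap as well.

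A single member, miR-6944-3p, was called as higher with IL-1β. edgeR called 1 of the 63 tested members (1.59%) at an adjusted p under 0.05 with an absolute log2 fold change over 0.3, while 1.95% of all 564 tested miRNAs were called, 1.42% as higher. The share in the block was thus close to that over the table. At an unadjusted p under 0.05 there were 3 of the 63 tested members, compared with 63 of all 564 tested miRNAs (11.2%), a lower share in the block. Among the tested members, the groups of 4 libraries did not overlap for 2 (3.17%), both higher with IL-1β. Over all tested miRNAs this held for 7.62%, and for 4.61% in the higher direction. The filter bears on that direction. Of the 2, miR-7084-3p exceeded 1 CPM in IL-1β libraries alone, while miR-6952-5p, which did not pass the filter, had 2, 1, 4 and 1 counts with vehicle and 0 in all 4 IL-1β libraries. It was the only one of the 148 untested members with counts whose groups did not overlap, and it is named after its values were seen. Of the 63, 33 had a log2 fold change above 0 and 30 below, and the median was 0.01, as it was over all miRNAs tested. The median standard error of a member was 0.79 on the log2 scale, compared with 0.26 for other miRNAs, and the tested members had a median of 18 counts in all, compared with 170.

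miR-6944-3p, the most abundant member, stood at 86.9, 80.7, 102 and 65.4 normalized CPM in the vehicle libraries and at 123, 116, 142 and 122 in the IL-1β libraries. Every IL-1β library was above every vehicle library. The means of 83.9 ± 15.3 and 126 ± 11.1 (SD, n = 4) gave a 1.50-fold ratio, and the fitted log2 fold change was 0.55 (SE 0.14, adjusted p = 0.0323 by the edgeR quasi-likelihood test with Benjamini-Hochberg adjustment over 564 miRNAs). The call was lost without vehicle library 2 (adjusted p = 0.105), vehicle library 4 (0.108), IL-1β library 1 (0.0819) or IL-1β library 3 (0.136), all in edgeR. It was also lost with library totals only (edgeR, 0.0701), upper-quartile scaling (edgeR, 0.0678), DESeq2 (0.0841) and limma voom (0.0563), while the fold change stayed above 0 in each.

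**Figure D4:**
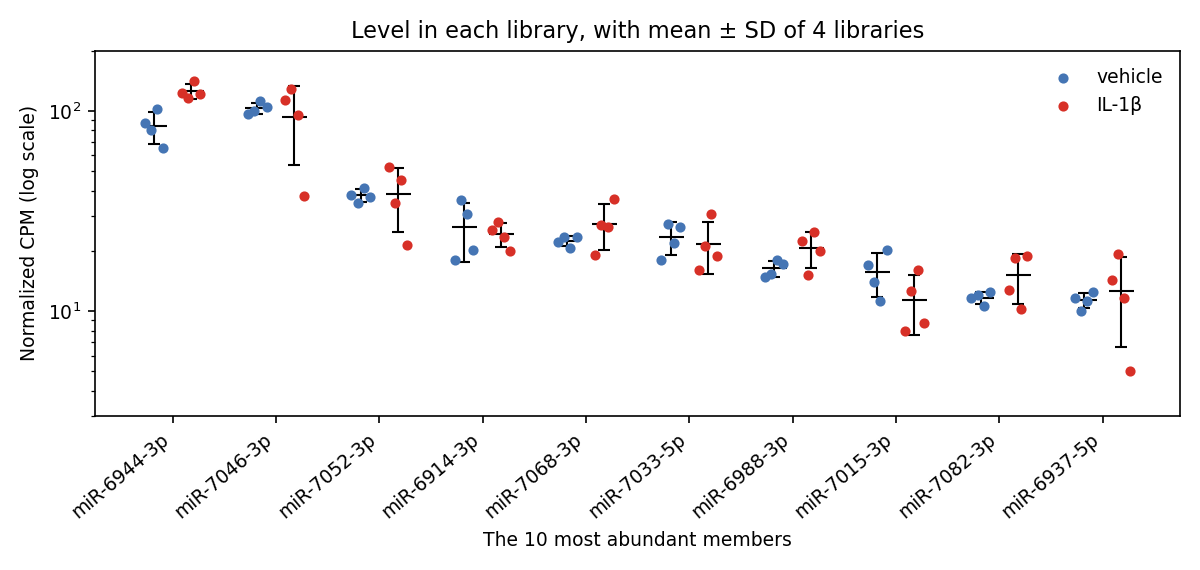
Normalized CPM (log scale) of the 10 most abundant members in each library, vehicle in blue and IL-1β in red, with horizontal bars and whiskers for the mean ± SD of 4 libraries. miR-6944-3p is the only one of the 10 whose groups do not overlap, and 1 IL-1β library sits far below the others for miR-7046-3p.

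Other abundant members did not pass the test. miR-7046-3p stood at 96.5, 100.1, 112 and 104 normalized CPM in vehicle libraries and at 114, 128, 94.98 and 37.6 in IL-1β libraries. The log2 fold change was -0.13 (SE 0.29), and without IL-1β library 4, the one at 37.6, it was 0.14. miR-7052-3p had 38.2, 34.7, 41.2 and 37.4 with vehicle and 52.8, 34.6, 45.3 and 21.3 with IL-1β, a log2 fold change of -0.02 (SE 0.21). IL-1β library 4 was again the lowest, and the sign changed without it (0.16).

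miR-6914-3p had 18.0, 36.0, 30.6 and 20.3 normalized CPM with vehicle and 25.6, 27.8, 23.4 and 20.1 with IL-1β. miR-7068-3p had 22.3, 23.4, 20.6 and 23.4 with vehicle and 19.2, 27.0, 26.3 and 36.3 with IL-1β. miR-7033-5p, the leading 5p arm, had 18.0, 27.4, 21.9 and 26.5 with vehicle and 15.996, 21.1, 30.7 and 18.8 with IL-1β. The groups overlapped in all 3, with log2 fold changes of -0.18 (SE 0.24), 0.31 (SE 0.23) and -0.12 (SE 0.25).

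The remaining 4 of the 10 most abundant lay between 5 and 25 normalized CPM. miR-6988-3p, from an intron of Syvn1 (a ubiquitin ligase of endoplasmic reticulum quality control), had means of 16.4 ± 1.53 and 20.6 ± 4.12 (SD, n = 4). miR-7015-3p had 15.6 ± 3.87 and 11.4 ± 3.74, and miR-7082-3p, from an intron shared by Raver1 (an RNA-binding protein) and Gm38431, had 11.7 ± 0.784 and 15.1 ± 4.26. miR-6937-5p had 11.3 ± 1.02 and 12.6 ± 5.99. None of these separated the groups, and their log2 fold changes ran from -0.36 to 0.43.

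The other members with an unadjusted p under 0.05 were rare. miR-7084-3p, from an intron of the elongation factor gene Elof1, had 0, 1, 0 and 0 counts in vehicle libraries and 3, 2, 1 and 3 in IL-1β libraries. Per depth the pooled counts, 1 and 9, had a ratio of 12.6 with an exact counting interval of 1.75 to 553. It was the only tested member that passed the filter through one group alone, the IL-1β libraries where it is high, so that its interval, its p and its lack of overlap were conditioned on that difference and are given as a description. Its adjusted p of 0.156 (edgeR) missed the threshold. miR-7018-3p is the 3p arm of a whole-intron hairpin in Hspg2, which encodes perlecan, a proteoglycan of the cartilage matrix. It stood at 9.54, 4.67, 8.12 and 12.5 normalized CPM with vehicle and at 4.80, 2.53, 2.92 and 6.27 with IL-1β, and the groups overlapped. The log2 fold change was -0.997 (SE 0.47, unadjusted p = 0.0445, adjusted p = 0.425, edgeR). The member that shares its seed, miR-7068-3p, lay the other way at 0.31, and miR-7023-3p had a single count, in IL-1β library 1.

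The remaining members at the ends of the fold-change order rested on few counts. At the lower end, miR-6986-5p had 12 counts with vehicle and 2 with IL-1β, a depth-corrected ratio of 0.234 with an exact counting interval of 0.0254 to 1.05. miR-6967-3p had 10 and 2, and its listed length of 40 nt sums 2 loci. miR-7081-3p, from an intron of the DNA methyltransferase gene Dnmt1, had 13 and 3, and miR-7083-3p had 27 and 10. For all 4 the interval of the ratio included 1.

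At the upper end, miR-7083-5p had 5 counts with vehicle and 11 with IL-1β, and miR-7085-3p had 7 and 11. miR-6909-3p and miR-6901-5p each had 3 and 6, a ratio of 2.80 with an interval of 0.599 to 17.3. None of these 4 excluded a ratio of 1.

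**Figure D5:**
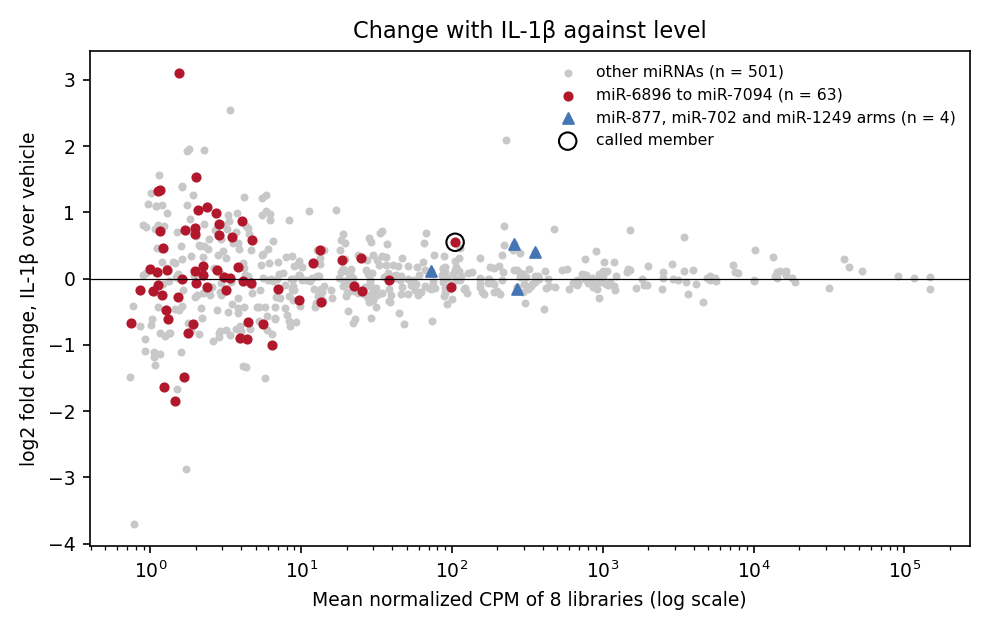
Fitted log2 fold change of IL-1β over vehicle against mean normalized CPM of 8 libraries (log scale), for 63 members, 501 other tested miRNAs including 4 arms of miR-877, miR-702 and miR-1249, drawn as triangles. Members crowd at low levels, where fold changes scatter widely, and the circled point is miR-6944-3p.

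Lower-numbered miRNAs from introns give a scale for these values. Mir877 filled an intron of 85 bases, as a mirtron does, and Mir702 ended 2 bases before the end of its intron and began 9 bases before its start. Mir1249 met neither end of its intron, lying 1506 bases from the start and 751 from the end, so that its position does not tie it to splicing. miR-877-3p stood at 251, 174, 213 and 204 normalized CPM with vehicle and at 331, 288, 276 and 310 with IL-1β, without overlap, and was called with a log2 fold change of 0.52 (SE 0.11, adjusted p = 0.0103, edgeR). Its 5p arm, at 287 ± 28.2 and 255 ± 27.7 (SD, n = 4), was not called, with a log2 fold change of -0.16 (SE 0.11). miR-1249-3p was also called, its vehicle mean being 307 ± 20.1 and its IL-1β mean 406 ± 52.6 (SD, n = 4), a log2 fold change of 0.40 (SE 0.10, adjusted p = 0.0323, edgeR). miR-702-3p, at 70.1 ± 4.02 and 76.0 ± 19.7, was not called. Over 17 alternative fits, miR-877-3p lost its call in 2 and miR-1249-3p in 9, compared with 8 for miR-6944-3p. Among these, the call of miR-877-3p was lost without vehicle library 2 (edgeR adjusted p = 0.0625) or IL-1β library 1 (0.0584), and that of miR-1249-3p without vehicle library 2, 3 or 4 or IL-1β library 1 or 2 (0.0554 to 0.138). miR-1224-3p had 1 count, and miR-1224-5p, miR-1249-5p and miR-702-5p had none.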

How the data were processed

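Counts of reads per mature miRNA were used as deposited. According to the study's methods and the submitters' processing notes, the authors trimmed reads with cutadapt, aligned them to mm10 with GENCODE annotation vM20 by STAR at default parameters (v2.5.4 in the methods, 2.4.2a in the notes) and counted them with featureCounts of Subread (v1.6.3). The source of the mature miRNA names, and the strand setting and treatment of reads with several loci in counting, are not given in the sources used here, so that near-identical copies are uncertain. Ligation favors some arms over others, which can shift arm shares. RUVseq was described, but the values were whole numbers and were treated as uncorrected. Whole numbers alone do not show this, and it was not tested.

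Counts were fitted over the whole table with edgeR 4.0.16 (TMM scaling, robust quasi-likelihood test, two-sided, R 4.3.3, group as the only term) for miRNAs over 1 CPM in at least 4 of 8 libraries, and p-values were adjusted over all 564. A miRNA was called at an adjusted p under 0.05 and an absolute log2 fold change over 0.3. Normalized CPM are counts per 1000000 after TMM. Groups came from the sample labels. Arm by treatment was fitted in edgeR with a term per library. Exact intervals came from SciPy 1.17.1. Sequences were from RefSeq (GRCm38.p6), introns from GENCODE M21. Scripts were tested on simulated data. Alternatives were other scalings, filters, DESeq2 1.42.0, limma 3.58.1 (voom), a surrogate variable (sva 3.50.0, in place of RUVseq), the replicate block and leaving out each library.

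The members and lists were chosen with earlier results of these data known. Named were members called, the 10 most abundant, the 5 largest and 5 smallest fold changes, the arms of the 6 hairpins with most counts, members whose groups do not overlap, and the comparison miRNAs. The 48 member names without a sequence are not described by sequence.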

Additional observations from a re-analysis of the deposited data

How the results depend on the processing

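Of the 403 members, 211 had a count, 171 exceeded 1 CPM in a library and 71 had at least 3 counts in a library, so the extent of detection depends on the limit chosen. The number of 3p-dominant hairpins was 27 at a minimum of 20 counts, 43 of 56 hairpins at 10 counts and 12 of 14 at 50, and 23 to 26 when a library was left out. The only call, miR-6944-3p, was kept with median-of-ratios scaling, no filter, a mean of at least 10 counts, 1 surrogate variable and no fold threshold. It was lost, leaving 0 members called, with library totals only, upper-quartile scaling, DESeq2, limma voom and an absolute log2 fold change over 1, and leaving out 1 library gave 0 to 1. Its log2 fold change ran from 0.47 to 0.67 and its adjusted p from 0.00595 to 0.136 over 17 fits. The cause was not tested. With the replicate block, miR-6944-3p had 0.58 (edgeR, adjusted p = 0.00595), 1 member was called, and 19 miRNAs were called in all, compared with 11 without the block. Same-numbered libraries correlated between -0.22 and 0.20, and 1 of 4 libraries of each group correlated best with its own number, so the numbers were not taken as pairs. The sign of miR-7052-3p turned in 4 of 17 alternative fits, that with the block (0.014) among them. On leaving out 1 library, log2 fold changes ran from -0.37 to 0.14 for miR-7046-3p, from -0.20 to 0.16 for miR-7052-3p, from -0.32 to 0.016 for miR-6914-3p, from -0.15 to 0.51 for miR-6937-5p and from -0.036 to 0.22 for miR-702-3p. Over all miRNAs, 7 were called with DESeq2, 18 with 1 surrogate variable, 0 with an absolute log2 fold change over 1, and 7 to 19 when a library was left out (19 without IL-1β library 4, and 7 without vehicle library 2 or IL-1β library 1). The difference in summed level, IL-1β minus vehicle, ran from -9.35 CPM without miR-6944-3p to 66.3 CPM without IL-1β library 4, where it exceeded the SD of either group (43.1 and 41.6), and 0 arm-by-treatment calls were made in its 9 alternatives. Tested members had a median of 18 counts, and their standard errors ran from 0.137 to 1.15 with a median of 0.79.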
